A study of Mus musculus with 6 samples.

Results

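Tbx21, Eomes, Zeb1 and Zeb2 encode 4 transcription factors that CD8 T cells use in effector and memory fate choices, and ATAC-seq, which maps open DNA by where a transposase can insert adapters, measured chromatin accessibility at their loci. The regions were those rows of the deposited count table that overlapped the body of one of these genes by at least 1 base, or that lay between genes with one of them as the nearest protein-coding gene within 100 kb. This gave 66 of the 74686 regions in the table, of which 16 belonged to Tbx21, 15 to Eomes, 9 to Zeb1 and 26 to Zeb2. Of the 66, 33 lay inside a gene body. The choice used position alone, and it does not say which gene each region controls.

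The cells were OT1 CD8 T cells, whose transgenic receptor recognises ovalbumin, and they were sorted on CD8 together with CD45.1, a congenic marker, out of tumors of the B16-OVA-GP61 line, a mouse melanoma that carries ovalbumin and the GP61 epitope. In 3 libraries the tumors also held SMARTA cells, which are CD4 T cells with a transgenic receptor for GP61, and in the other 3 libraries they did not. Both groups shared the tumor line, the OT1 cells and the sort, and the labels state no mouse strain, age or day of harvest. Whether replicates stem from different animals is not stated in the labels, so the p-values cover library-to-library spread, which may be technical.

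T-bet (the product of Tbx21) and EOMES are paralogous T-box proteins that bind the same DNA half-site. In CD8 T cells T-bet is known for driving effector genes, while EOMES is known for roles in memory cells and, in exhausted cells, in the more terminal state. ZEB1 and ZEB2 are zinc finger proteins that bind E-boxes and mostly repress transcription. ZEB2 acts with T-bet in terminal effector cells, and ZEB1 is known in mouse T cells for supporting memory.

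The RefSeq promoter windows of GRCm38.p6, 250 bases before to 50 after a start, are shown for the 2 starts that lie in accessible regions, since accessibility at these starts is compared below. The Tbx21 window is chr11:97115282-97115581 on the minus strand, and 262 of its 300 bases lie in the region at the start of the gene. The Zeb2 window is chr2:45110228-45110527, also on the minus strand, and belongs to a start inside the annotated gene that lies in the most accessible region of the locus. Capitals mark the ZEB E-box.
Tbx21 promoter window: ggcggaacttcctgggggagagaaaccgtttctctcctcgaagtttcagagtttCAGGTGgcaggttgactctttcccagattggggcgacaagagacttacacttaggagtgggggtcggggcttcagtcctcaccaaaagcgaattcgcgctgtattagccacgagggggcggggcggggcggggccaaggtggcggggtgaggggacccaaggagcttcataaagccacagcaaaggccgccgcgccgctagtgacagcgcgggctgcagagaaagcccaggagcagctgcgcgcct
Zeb2 promoter window: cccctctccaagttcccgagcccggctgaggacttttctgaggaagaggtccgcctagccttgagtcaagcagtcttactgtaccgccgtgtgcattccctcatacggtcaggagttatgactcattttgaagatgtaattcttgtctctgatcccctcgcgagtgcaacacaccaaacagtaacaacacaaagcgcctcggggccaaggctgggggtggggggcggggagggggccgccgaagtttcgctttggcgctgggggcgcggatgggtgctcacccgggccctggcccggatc

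The motifs searched, on both strands, were the ZEB E-box CAGGTG (reverse CACCTG) and the T-box half-site GGTGTGA (reverse TCACACC), and the motifs can overlap, since they share the letters GGTG. The Tbx21 window held 1 ZEB E-box, whose first base is at position -196 from the start, and no T-box half-site. The Zeb2 window held neither. Of 32851 RefSeq mouse promoter windows of 300 bases, 20.2% held the E-box and 3.98% the half-site, so an E-box in such a window is common. A match is a description of the letters and not of binding.

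Libraries held 16595779 to 27182809 counts over all regions, and the median region had 62 to 114 counts. Accessibility is given as CPM, the usual depth-scaled count, relative to all counts in regions after TMM scaling, and the change as the log2 fold of libraries with SMARTA cells over libraries without. A region is called closed where the fold is negative and opened where it is positive, at an adjusted p under 0.05 over all 74686 regions. Replicate 2 with SMARTA cells stood apart from its group on the second principal component (score 89.1, against -72.1 and -36.6), which held 19.2% of the variance. It was the lowest of the 6 libraries in 31 of the 66 regions (47.0%) and in 24.7% of all regions. By gene it was lowest in 6 of 16 regions at Tbx21, 9 of 15 at Eomes, 1 of 9 at Zeb1 and 15 of 26 at Zeb2. Fits that left it out are given below, and its part in the results was not tested beyond them.

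The CD8 genes Cd8a and Cd8b1 together averaged 12.2 to 15.9 CPM per region with SMARTA cells and 15.2 to 15.4 without over their 32 regions, and the 7 T cell markers averaged 15.2 to 17.7 CPM with and 15.9 to 18.3 without. All 4 CD4 T cell markers had regions, with 10.6 to 11.3 CPM with and 8.41 to 10.1 without, and 0 of them was called. Among defining markers of other cells, Tyr and Tyrp1 of melanoma cells, Lyz2, Fcgr3 and Xcr1 of myeloid cells, Cd79a and Ms4a1 of B cells, Dcn of fibroblasts and Tek of endothelial cells had no region in the table. The 5 melanoma markers with regions averaged 21.8 to 24.1 CPM with SMARTA cells and 20.5 to 21.9 without. Pmel was the highest of them, at 53.2 to 64.3 over the 6 libraries, followed by Mitf at 12.0 to 15.5. Mlana had 3.72 to 4.88, Sox10 1.56 to 3.96 and Dct 1.02 to 1.8. The 2 NK cell markers averaged 18.7 to 20.2 with and 17.2 to 18.0 without. Of these, Klrb1c had 18.2 to 21.5 over its 15 regions and Ncr1 had 1.01 to 1.94 at its 1 region. Myeloid markers averaged 6.07 to 7.1 with and 6.16 to 6.96 without, and B cell markers 3.85 to 4.82 and 4.85 to 6.48. Fibroblast markers averaged 4.62 to 5.52 and 5.34 to 5.71, and endothelial ones 2.45 to 2.83 and 1.98 to 2.56. Of the 31 other-cell and T cell markers with regions, Pax5 was called, lower with SMARTA cells (adjusted p = 0.017). The part of other cells in the results was not tested.

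With SMARTA cells, Zeb2 lost accessibility at 4 of its 26 regions, Zeb1 at 1 of 9, Eomes lost 1 region and gained 1 of 15, and none of the 16 Tbx21 regions was called in either direction. Together 6 of the 66 regions closed (9.09%) and 1 opened (1.52%), against 10.4% closed and 4.68% opened among all regions, so the closed share was near the background. The most accessible region of each gene was not called. These are bulk libraries, in which fewer cells with open DNA and less open DNA per cell cannot be told apart. At an unadjusted p under 0.05, 24 of the 66 passed (29.2% of all regions), of which 17 were lower and 7 higher (17.2% and 12.0% of all regions). In 14 regions all libraries with SMARTA cells lay below all without and in 5 above (18.5% and 15.7% of all regions). The median log2 fold was -0.17 over the 66 regions and 0.01 over all regions.

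**Figure D1:**
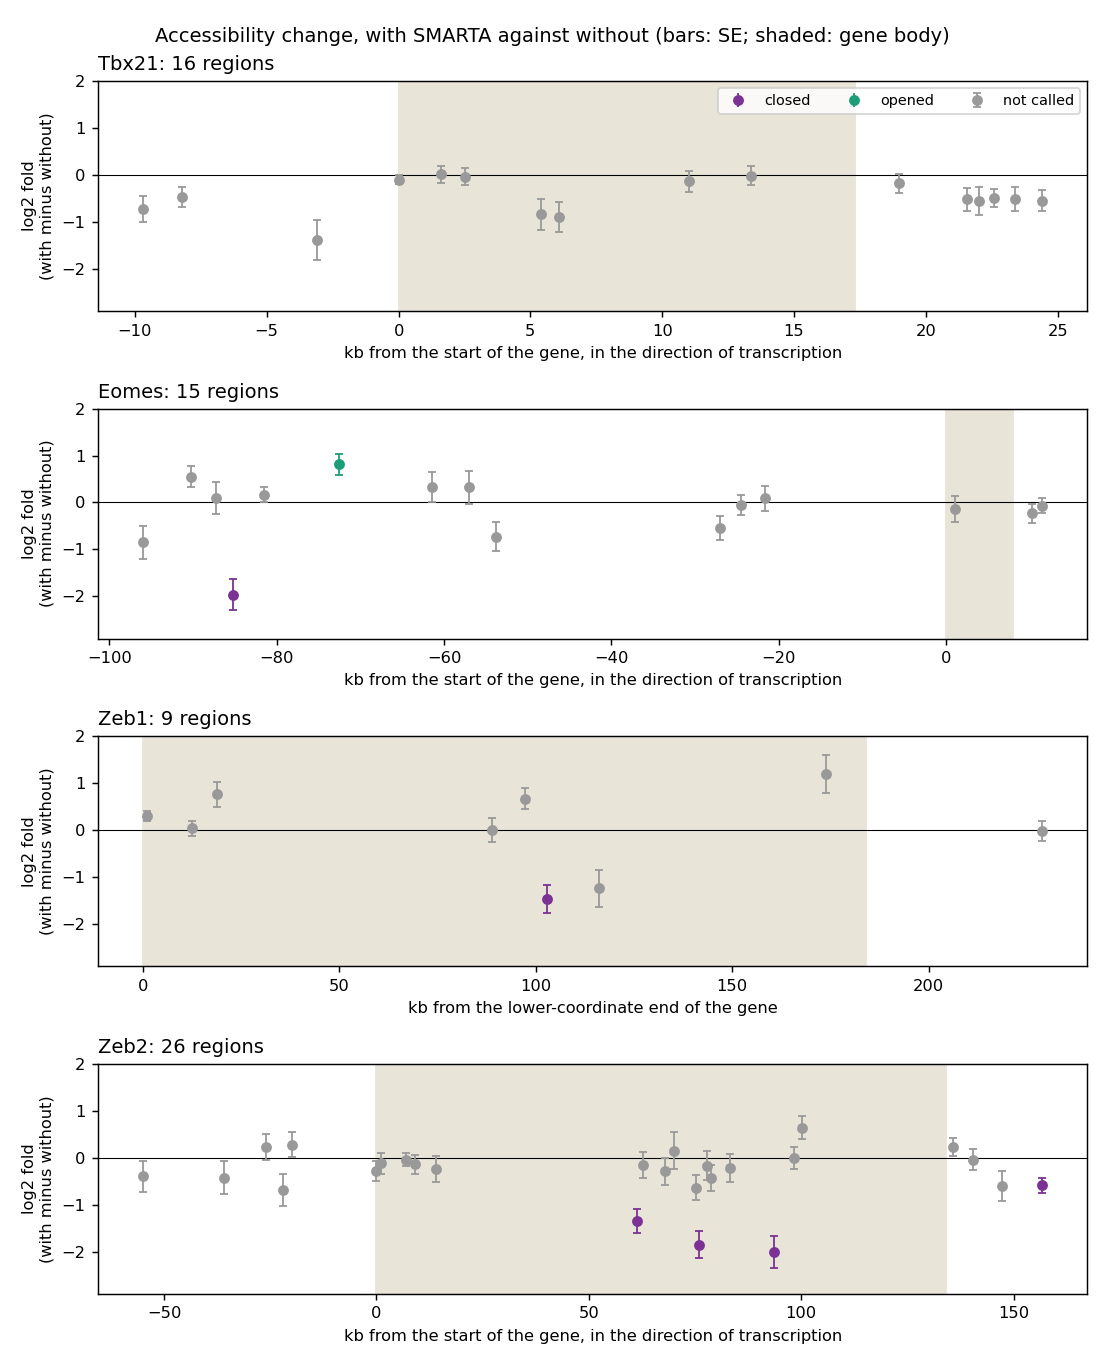
Log2 fold of each region (with SMARTA cells minus without, vertical axis, bars are SE) against its distance in kb from the start of the gene, or from the lower-coordinate end for Zeb1 (horizontal axis), with the gene body shaded. The closed regions of Zeb2 at -1.35, -1.85 and -2.01 lie inside the gene, while both called regions of Eomes lie far upstream of it.

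The genes differed in where their folds lay. At Tbx21, which had no called region, 15 of 16 folds were negative and the median was -0.50. At Zeb2 21 of 26 were negative with a median of -0.23, at Eomes 8 of 15 with a median of -0.05, and at Zeb1 3 of 9 with a median of 0.04. Over all regions the 25th percentile of the folds was -0.35 and the 75th was 0.22. Regions of a gene share libraries and neighbourhood and are not replicates, so these medians are a description.

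**Figure D2:**
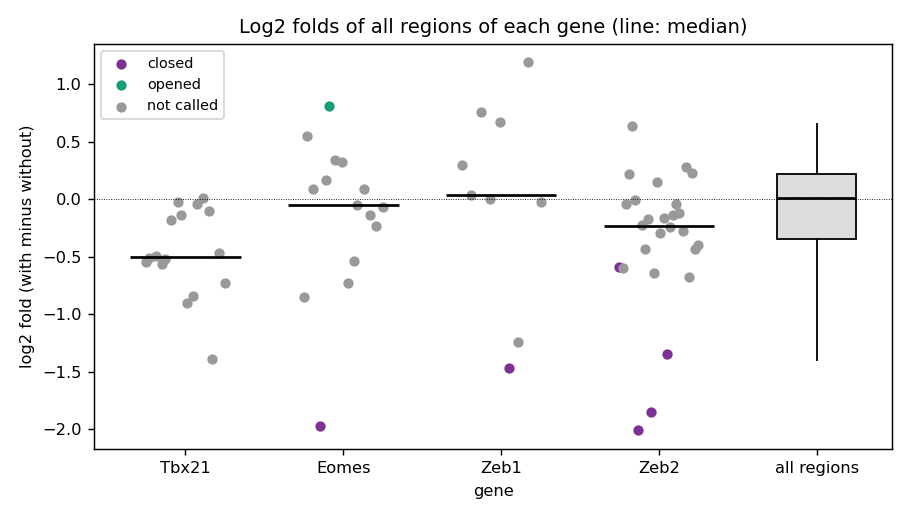
Log2 folds of all 66 regions by gene (points, vertical axis, with SMARTA cells minus without, line at the median), beside all 74686 regions (box from the 25th to the 75th percentile, line at the median, whiskers from the 5th to the 95th). The Tbx21 points lie at or below 0.01, whereas those of Eomes and Zeb1 lie on both sides of zero.

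Tbx21 (gene ID 57765, chromosome 11, 97098007 to 97115331, GRCm38, minus strand) spans 17.3 kb. Its region 14 (97118166 to 97118566, numbered along the chromosome), 2.83 kb upstream of the gene, had 8.5, 2.05 and 4.38 CPM with SMARTA cells and 8.62, 17.1 and 13.5 CPM without. The groups did not overlap, although replicate 1 of each group differed by little (8.5 with and 8.62 without). The log2 fold was -1.39 ± 0.42 (SE; 95% interval -2.32 to -0.45) with an adjusted p of 0.0503, just above the threshold, in edgeR's quasi-likelihood test. It was called under total-count scaling (adjusted p = 0.041), loess scaling (0.032) and DESeq2 (0.010), and its fold was -1.04 without replicate 2 with SMARTA cells (0.0461) and -1.99 without replicate 1 of that group (0.012). These were the only 2 of 6 fits leaving out 1 library that called it, and the adjusted p there reached 0.16. It was not called under RLE scaling (0.0511), with a replicate block (0.073) or with a filter of at least 2 CPM in at least 3 libraries (0.056). The authors' peak lists held a peak there in 1 of 3 libraries with SMARTA cells and in 3 of 3 without.

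The Tbx21 start itself was not called. Region 13 (97115143 to 97115543), which holds most of the promoter window printed above, had 33.4, 35.1 and 33.9 CPM with SMARTA cells and 35.9, 35.6 and 38.3 CPM without. All libraries with SMARTA cells were the lower ones, yet the groups nearly touched and the fold was -0.10 ± 0.10 (95% interval -0.31 to 0.11; adjusted p = 0.54). The most accessible region of the locus, region 8 (97104093 to 97104493, 11 kb into the gene), averaged 38.6 CPM over 6 libraries, with a fold of -0.14 ± 0.23 and an adjusted p of 0.74. Its fold was 0.04 without replicate 2 with SMARTA cells, and the 2 groups overlapped. A change the size of that at region 14 lies outside the interval at the start.

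None of the other Tbx21 regions passed. The nearest to the start inside the gene, regions 12 and 11 (1.59 and 2.51 kb from it), had folds of 0.01 and -0.04, and regions 7 and 6 near the 3′ end had -0.02 and -0.18. Between them, regions 9 and 10 (6.15 and 5.45 kb from the start) had folds of -0.90 ± 0.32 and -0.84 ± 0.33 (adjusted p = 0.090 and 0.12). Region 9 had 14.3, 4.63 and 11.4 CPM with SMARTA cells and 17.6, 21.4 and 17.7 CPM without, so its groups did not overlap. Upstream, regions 15 and 16 had folds of -0.47 and -0.73 (adjusted p = 0.16 and 0.095). Beyond the 3′ end, regions 1 to 5 had folds between -0.56 and -0.49 (adjusted p = 0.12 to 0.25). Summed over its 16 regions, Tbx21 had 187, 138 and 171 CPM with SMARTA cells and 178, 236 and 221 CPM without, which overlap. The log2 fold of the sum was -0.36 ± 0.12 (95% interval -0.63 to -0.08), and its adjusted p over 15956 genes was 0.093. The sum was called under loess scaling (-0.43, adjusted p = 0.046) and by DESeq2 (-0.35, 0.042). It was not called with a replicate block (0.13), and was called in 0 of 6 fits that left out 1 library (adjusted p from 0.059 to 0.24).

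**Figure D3:**
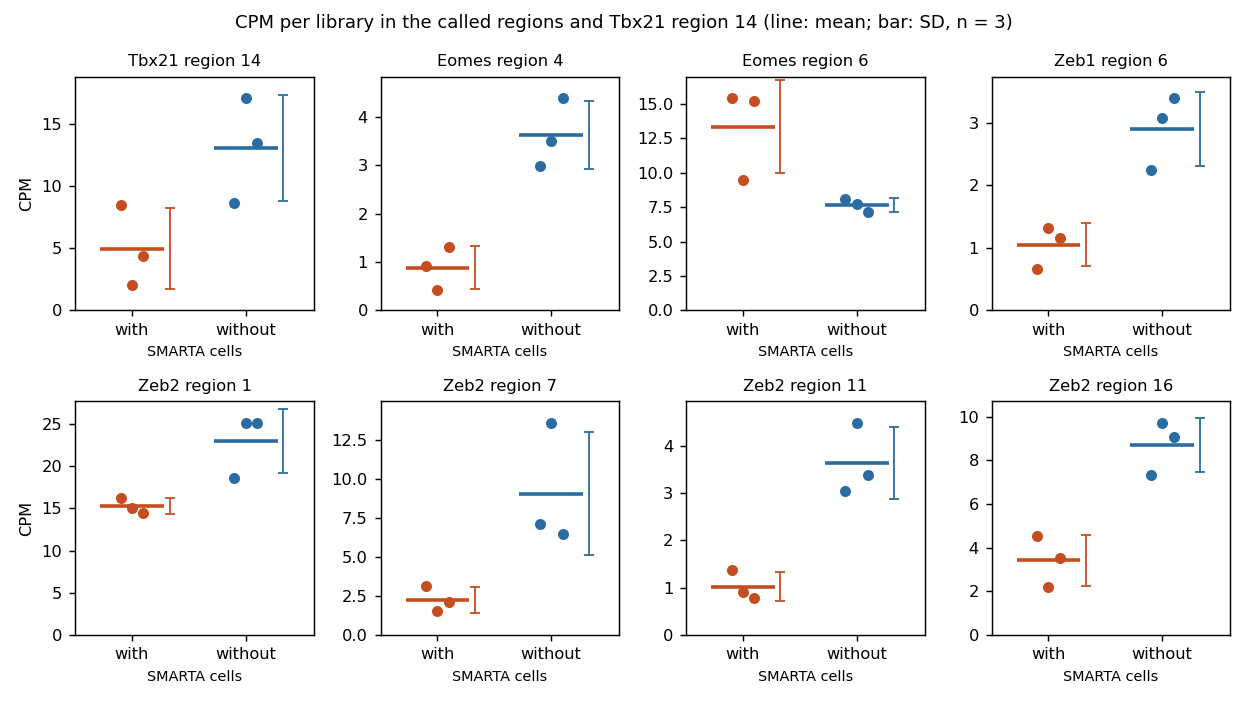
CPM (vertical axis, from 0) in each library with SMARTA cells and without at the 7 called regions and Tbx21 region 14, as points with the mean (line) and SD (bar, n = 3). Of the 7 called regions, all but Eomes region 6 show the 3 libraries with SMARTA cells below the 3 without, and at Eomes region 6 they lie above.

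Eomes (gene ID 13813, chromosome 9, 118478186 to 118486132, GRCm38, plus strand) spans 7.95 kb. Most of its regions lie upstream, and region 4 (118392819 to 118393219, 85.0 kb before the gene) closed. It had 0.917, 0.421 and 1.31 CPM with SMARTA cells and 2.99, 3.50 and 4.38 CPM without, from 7 to 35 counts per library with and 60 to 106 without. The groups did not overlap, with a fold of -1.97 ± 0.33 (adjusted p = 0.0035), and peaks lay there in 0 of 3 libraries with SMARTA cells and in 3 of 3 without. This call held in all 6 fits that left out 1 library.

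Region 6 (118405380 to 118405780, 72.4 kb before the gene and inside the noncoding gene Platr11) opened. It had 15.4, 9.44 and 15.2 CPM with SMARTA cells and 8.12, 7.69 and 7.15 CPM without, so that replicate 2 with SMARTA cells was close to the other group. The fold was 0.81 ± 0.22 (adjusted p = 0.034), called in 1 of 6 fits that left out a library (adjusted p from 0.0025 to 0.13). Region 6 had a peak in all 6 lists. Regions 7 to 9 lie in the same noncoding gene, with folds of 0.34, 0.32 and -0.73, none of them called.

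The start of Eomes had no region of its own in the table, because the RefSeq promoter window overlapped none. Peaks of all 6 lists nevertheless overlapped a stretch that holds the start (118478146 to 118478306). The region inside the gene, region 13 (118478989 to 118479389, 1.0 kb after the start), had 26, 12.9 and 23.9 CPM with SMARTA cells and 17.4, 30.2 and 21.7 CPM without. The groups overlapped, and the fold was -0.14 ± 0.27 (adjusted p = 0.77), which turned to 0.11 without replicate 2 with SMARTA cells and to 0.10 without replicate 2 of the other group. Region 15 (118489513 to 118489913), past the 3′ end and the most accessible at 22.2 CPM over 6 libraries, had a fold of -0.07 ± 0.16 (adjusted p = 0.82), or 0.05 and 0.04 without the same 2 libraries in turn. Summed over 15 regions Eomes had 163, 100 and 157 CPM with SMARTA cells and 118, 167 and 139 CPM without. The groups overlapped throughout, the fold was -0.01 ± 0.17 (95% interval -0.38 to 0.36; adjusted p = 0.98), and without replicate 2 with SMARTA cells it was 0.18 and without replicate 2 of the other group 0.13. A further 14 regions between 100 and 200 kb from Eomes, not counted among the 66, held 2 closed and 0 opened. The nearest of these, 103 kb away, had a fold of -0.29, and region 1, 95.8 kb away and the farthest that was counted, had -0.85 (adjusted p = 0.14).

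Zeb1 (gene ID 21417, chromosome 18, 5591327 to 5775468, GRCm38) spans 184 kb, and its strand and promoter are not given in the tables used here. Its most accessible region, region 1 (5592150 to 5592550, 1.02 kb from the lower-coordinate end and inside the noncoding gene Gm10125 as well), had 31.2, 31.9 and 34.0 CPM with SMARTA cells and 25.7, 26 and 27.1 CPM without. All 3 libraries with SMARTA cells were above the 3 without, and each group was tight, but the fold of 0.30 ± 0.11 did not pass (adjusted p = 0.088). The authors' fold enrichment of the peaks at region 1 went against the counts. It was 7.11, 7.77 and 7.13 with SMARTA cells and 7.79, 8.62 and 8.43 without, a difference that was not tested. Regions 3, 5 and 8 also had positive folds that did not pass, of 0.76, 0.67 and 1.19 (adjusted p = 0.083, 0.074 and 0.071).

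Inside the Zeb1 body 1 region closed. Region 6 (5694309 to 5694709, 103 kb from the lower-coordinate end) had 0.662, 1.32 and 1.16 CPM with SMARTA cells and 2.24, 3.08 and 3.39 CPM without, from 13 to 31 counts per library with and 45 to 82 without. The groups did not overlap and the fold was -1.47 ± 0.29 (adjusted p = 0.0083), called in all 6 fits that left out 1 library. Region 7, the next one along, had a fold of -1.24 ± 0.40 (adjusted p = 0.066) and peaks in 0 of 3 libraries with SMARTA cells and 3 of 3 without. Summed over its 9 regions, Zeb1 had 70.2, 77.2 and 90.3 CPM with SMARTA cells and 68.1, 66.6 and 69.6 CPM without. The 3 libraries with SMARTA cells were all above, as for 23.9% of the 15956 genes, and the fold was 0.22 ± 0.09 (95% interval 0.02 to 0.42; adjusted p = 0.14). Without replicate 1 with SMARTA cells it was 0.30 and just called (adjusted p = 0.0499). Between 100 and 200 kb from Zeb1 lay 2 more regions, of which 1, at 125 kb, was closed (fold -2.33, adjusted p = 0.0033).

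**Figure D4:**
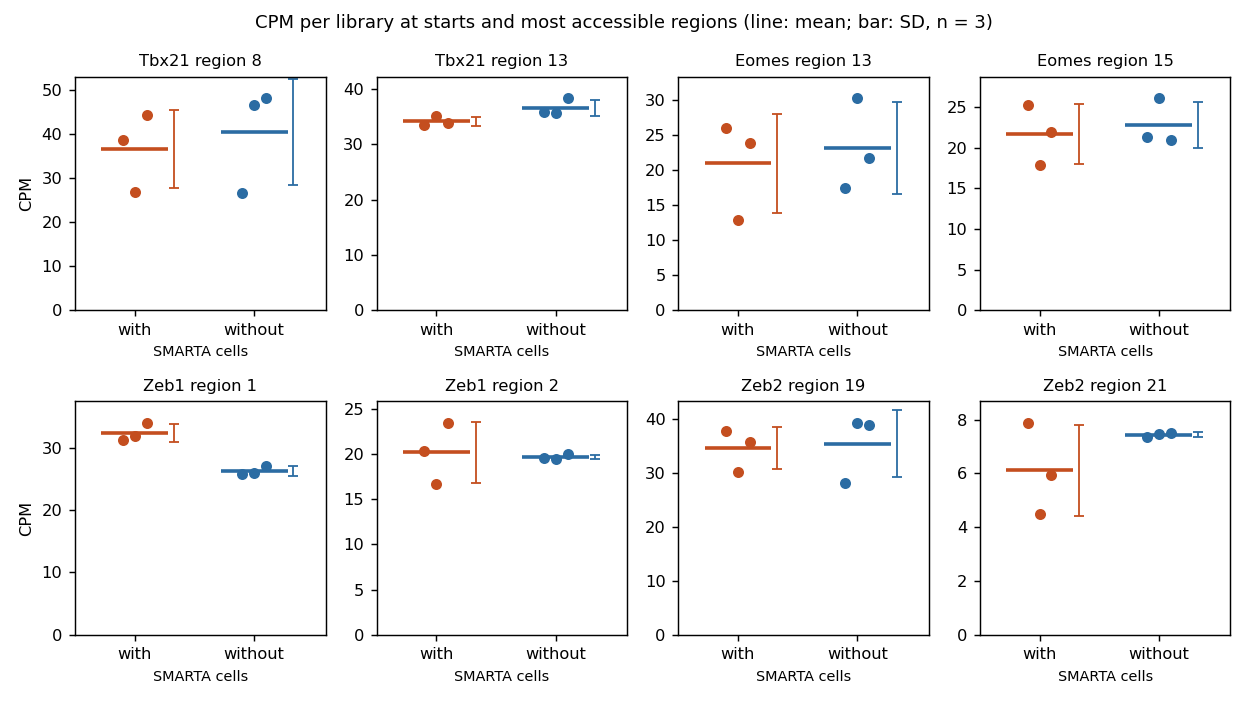
CPM (vertical axis, from 0) in each library with SMARTA cells and without at the regions nearest to starts and at the most accessible regions of the 4 genes, as points with the mean (line) and SD (bar, n = 3). Zeb1 region 2, 12.4 kb from the lower-coordinate end, is also shown. The 3 libraries with SMARTA cells lie above the 3 without at Zeb1 region 1 and just below them at Tbx21 region 13, and at the other regions the groups overlap.

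Zeb2 (gene ID 24136, chromosome 2, 44983512 to 45117442, GRCm38, minus strand) spans 134 kb. It held 4 of the 6 closed regions, and also the most regions, 26 of the 66. Its closed share was 15.4%, against 10.4% of all regions, and this difference was not tested. Region 7 (45023862 to 45024262) had 3.11, 1.50 and 2.1 CPM with SMARTA cells and 7.12, 13.6 and 6.45 CPM without, with a fold of -2.01 ± 0.34 (adjusted p = 0.0039). Region 11 (45041397 to 45041797) had 1.37, 0.902 and 0.786 CPM with SMARTA cells and 3.04, 4.50 and 3.39 CPM without, with a fold of -1.85 ± 0.28 (adjusted p = 0.0020). Both lie inside the gene, their groups do not overlap, and the values rest on 15 to 61 counts per library with SMARTA cells and 61 to 353 without.

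Region 16 (45055864 to 45056264) is also inside Zeb2 and had 4.53, 2.17 and 3.52 CPM with SMARTA cells and 7.32, 9.73 and 9.09 CPM without. Its fold was -1.35 ± 0.26 (adjusted p = 0.0073). Regions 7, 11 and 16 were called in all 6 fits that left out 1 library. Region 1 (44960531 to 44960931, 22.6 kb past the 3′ end) had 16.3, 15 and 14.5 CPM with SMARTA cells and 18.6, 25.2 and 25.2 CPM without, a fold of -0.59 ± 0.16 (adjusted p = 0.036). It was called in 2 of 6 such fits, with adjusted p up to 0.15 and folds between -0.72 and -0.52. Region 11 had peaks in 1 of 3 lists with SMARTA cells and 3 of 3 without, while regions 1 and 16 had peaks in all 6. At region 1 the authors' fold enrichment of these peaks went against the counts, with 14.5, 14.5 and 13.8 with SMARTA cells and 9.28, 10.6 and 10.6 without. At region 16 it was 7.77, 2.26 and 5.38 with and 9.18, 11.9 and 11.1 without. These differences in enrichment were not tested. Region 5, in the same stretch of the gene, went the other way without passing: 18.6, 19.6 and 19 CPM with SMARTA cells, against 7.52, 16.3 and 12.7 CPM without (fold 0.64, adjusted p = 0.11).

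At the start of Zeb2 no region was called. Region 19 (45110139 to 45110539), which holds the whole promoter window printed above and was the most accessible at 35 CPM over 6 libraries, had 37.7, 30.2 and 35.7 CPM with SMARTA cells and 28.2, 39.3 and 38.8 CPM without. These overlap, and the fold of -0.04 ± 0.14 has a 95% interval of -0.36 to 0.28 (adjusted p = 0.89), which excludes a loss the size of those at regions 7, 11 and 16. Without replicate 2 with SMARTA cells the fold was 0.05, and without replicate 2 or 3 of the other group 0.04 or 0.03. Region 21, at the start that forms the annotated end of the gene, had a fold of -0.28 ± 0.22 (adjusted p = 0.45). Summed over 26 regions Zeb2 had 211, 140 and 179 CPM with SMARTA cells and 176, 236 and 208 CPM without, with overlapping groups and a fold of -0.23 ± 0.14 (adjusted p = 0.31).

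**Figure D5:**
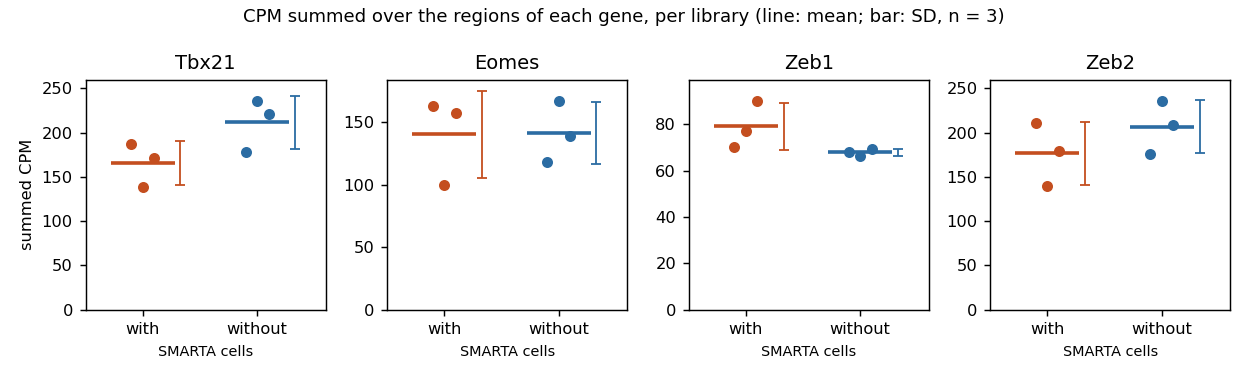
CPM summed over the regions of each gene (vertical axis, from 0) in each library with SMARTA cells and without, as points with the mean (line) and SD (bar, n = 3). At Zeb1 the 3 libraries with SMARTA cells lie above the 3 without, and at Tbx21, Eomes and Zeb2 the groups overlap.

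The closed regions of these genes were mostly of low accessibility, as in the whole table. Of the 43 regions with a mean under 10 CPM 5 closed and 0 opened (12.6% and 3.06% of all such regions), and of the 23 with a mean of at least 10 CPM 1 closed and 1 opened (5.24% and 8.53% of all such regions). Of all regions within 1 kb of a RefSeq start, 3.00% closed and 5.92% opened. Over the 4 genes 34 of the 66 regions had a peak in all 6 lists.

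Because Tbx21 and Eomes, and Zeb1 and Zeb2, are paralogues, the difference of their summed log2 CPM was compared per library. Tbx21 minus Eomes was 0.20, 0.45 and 0.12 with SMARTA cells (0.26 ± 0.17) and 0.60, 0.49 and 0.67 without (0.59 ± 0.09; SD, n = 3 each). The groups did not overlap, and the change of -0.33 had a two-sided exact permutation p of 0.10, the smallest that 3 libraries against 3 allow. By the median log2 CPM over regions in place of the sum, the change was -0.78 (exact permutation p = 0.10). Zeb2 minus Zeb1 was 1.59, 0.86 and 0.98 with SMARTA cells (1.14 ± 0.39) and 1.36, 1.82 and 1.58 without (1.59 ± 0.23), which overlap, with a change of -0.45 and an exact permutation p of 0.30. No pair could pass 0.05 at this size, so these values describe the 2 pairs.

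Genes whose summed accessibility followed these factors most closely over the 6 libraries, among genes with at least 10 regions, were Cd247 and Exoc2 for Tbx21 (root mean square difference 0.027 and 0.034 in log2 CPM), Slamf1 and Rgs13 for Eomes (0.083 and 0.092), Nr3c1 and Cdc42se2 for Zeb1 (0.040 and 0.041) and Tnip3 and Chm for Zeb2 (0.053 and 0.061). Cd247 encodes the CD3 zeta chain, and its sum had a fold of -0.38 (adjusted p = 0.064), close to that of Tbx21. The likeness is a description over 6 libraries of 2 groups.

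Genes of the same pathway were taken from 5 lists. Effector targets of T-bet, EOMES and ZEB2 had 33 of 149 regions closed (22.1%) and 6 opened (4.03%), against 10.4% closed and 4.68% opened of all regions, with a median fold of -0.27 against 0.01 over all regions. Closed regions lay at 11 of the 15 genes, and 10 of them at Ifng alone, which had 33 regions. The list was chosen with earlier results of these data known, and its closed share was not tested. Of the 15 effector target genes 1 was called by summed counts, against 5.00% of all genes called lower and 3.97% called higher. This gene, Cx3cr1, the chemokine receptor of terminal effector cells, had 126, 98.9 and 104 CPM with SMARTA cells and 185, 168 and 175 CPM without. Its groups did not overlap, and its fold was -0.68 ± 0.09 (adjusted p = 0.0018), called in all 6 fits that left out a library. Ccl4, a chemokine, had a fold of -0.54 (adjusted p = 0.057), and Cxcr3, a chemokine receptor, 0.24 (adjusted p = 0.071), so neither passed.

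Genes on the memory and naive side that these factors repress or oppose had 22 of 160 regions closed (13.8%) and 15 opened (9.38%), against 10.4% closed and 4.68% opened of all regions, with a median fold of 0.09. Of all genes 5.0% were called lower and 3.97% higher by summed counts. Of the 10 genes of the list Cdh1, which encodes E-cadherin, a known target of ZEB repression, rose to 131, 108 and 143 CPM with SMARTA cells, against 75.4, 89.5 and 86.8 CPM without (fold 0.60 ± 0.10, adjusted p = 0.0059). Cd27, a costimulatory receptor, was called lower (-0.39 ± 0.09, adjusted p = 0.027). Cdh1 was called in all 6 fits that left out a library and Cd27 in 3. The list therefore held called genes in both directions.

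Signals and factors upstream of T-bet, EOMES and ZEB2 had 27 of 309 regions closed (8.74%) and 14 opened (4.53%), near the 10.4% and 4.68% of all regions. Of their 17 genes Ifngr2, a chain of the interferon gamma receptor, was called, with 24.7, 20.8 and 30.5 CPM with SMARTA cells and 16.4, 16.5 and 17 CPM without. Its fold was 0.61 ± 0.14 (adjusted p = 0.023), called in 2 of 6 fits that left out a library. Tgfbr1, a TGF-beta receptor, and Il12rb1, an interleukin 12 receptor chain, had folds of 0.26 and -0.24 (adjusted p = 0.070 each). Other T-box genes had regions at 11 of 15 genes, where 3 of 50 regions closed and 1 opened and no gene was called (Mga 0.25, Tbr1 -0.45 and Tbx2 -0.30, adjusted p = 0.070, 0.096 and 0.14). Corepressors and chromatin partners had 4 of 42 regions closed and 0 opened, and none of the 9 genes was called (Ctbp2 -0.43, Hdac2 0.15 and Chd4 0.10, adjusted p = 0.14, 0.22 and 0.40). Beside the lower counts, replicate 2 with SMARTA cells, which stands apart as given above, was the lowest library at Cx3cr1 and Ccl4.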

How the data were processed

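The assay was ATAC-seq on 6 libraries, 3 with SMARTA cells and 3 without, grouped by sample titles. Per the submitters' processing notes, the build was GRCm38 and the tools included DiffBind 3.4.11, MACS2 2.1.1, Picard 2.18.9, SAMtools 1.8 and BWA 0.7.17. Not given in the sources used here are their roles and settings, duplicate removal and the shift for the transposase. Duplicates left in would inflate counts. The authors deposited whole-number read counts per region, without normalization, and a peak list per library with a fold enrichment ratio, a score, a −log10 p and a −log10 q of the authors' own, used only to describe peaks.

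Counts were tested with edgeR 4.0.16 under R 4.3.3 (TMM, filterByExpr, which removed 0 regions, glmQLFTest, Benjamini-Hochberg over 74686 regions). SE is the fold divided by the root of F, and the biological coefficient of variation was 18%. Gene sums were fitted the same way over 15956 genes. The code was tested on simulated data. Alternatives were RLE, total-count and loess scaling, DESeq2 1.42.0, filters, a replicate block, other assignments and left-out libraries. Gene names and promoters came from RefSeq GRCm38.p6. No genome was used. Coordinates are as deposited, so a base may differ by 1. The members and lists were chosen with earlier results of these data known. Named regions are the nearest to a start, the most accessible and every called one, others were named after their values were seen. Named pathway genes are the 3 of smallest p per list, of which 1 is not reported here.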

Additional observations from a re-analysis of the deposited data

Results flagged for a closer look

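Peaks of the authors at 31 stretches of Eomes, Zeb1 and Zeb2 overlap no region of the count table, so no fold was tested there. At 28 of these stretches, under 3 lists held such a peak. Some of the 28 were also covered by other peaks that do reach a region, as the Eomes stretch was in all 6 lists. Of the other 3, 2 had a higher top enrichment with SMARTA cells than without. At Zeb1, 2.62 kb from the lower-coordinate end (chromosome 18, 5593662 to 5594238), peaks of 5 lists reached a fold enrichment of 5.65 with SMARTA cells and 4.71 without. At Zeb2, 35.3 kb from the lower-coordinate end (chromosome 2, 45018624 to 45018997), peaks of 5 lists reached 2.33 with SMARTA cells and 2.26 without. At the third, beside Zeb1 region 6 (chromosome 18, 5694874 to 5695147), peaks of 1 list with SMARTA cells and 3 without reached 2.61 with and 3.18 without. The enrichments are the authors' values, and their difference between groups was not tested.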

How the results depend on the processing

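Under 7 other settings of scaling, test, filter and block, and in all 6 fits without 1 library, the calls at Eomes region 4, Zeb1 region 6 and Zeb2 regions 7, 11 and 16 kept their direction and side. No region was closed at Tbx21, but 1 was under total-count scaling, 2 under loess scaling and 2 by DESeq2, where the summed fold was -0.43 under loess (adjusted p = 0.046) and -0.35 by DESeq2 (0.042). With regions inside the gene body alone, within 20 kb, or given to the nearest gene of any type, 0 regions were closed and 0 opened at Eomes. These assignments kept 1, 3 and 1 regions there, and dropped the called regions 4 and 6, which lie 85.0 and 72.4 kb before the gene. Opened regions at Zeb1 numbered 1 under loess scaling, 2 by DESeq2 and 1 with the replicate block. The labels do not say whether replicates of the same number are pairs. Their deviations from the group means correlated at -0.02, -0.078 and 0.076, and those of differently numbered replicates at -0.107 to 0.086. With 3 libraries a group these values cannot decide whether the samples were paired. With the block 0 regions were opened at Eomes, where region 6 had an adjusted p of 0.057, and Zeb2 region 1 had 0.072. Peaks in all 6 lists numbered 11 regions under the stricter overlap, with a peak mostly inside the region. Apart from the dropped Eomes regions, the cause of these changes was not tested.

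Leaving out 1 library moved the calls over the whole table between 6074 and 12669. Closed regions ranged from 0 to 3 at Tbx21, 1 to 1 at Eomes, 1 to 2 at Zeb1 and 3 to 4 at Zeb2, and opened ones from 0 to 2 at Eomes and 0 to 3 at Zeb1. Summed folds ranged from -0.46 to -0.24 at Tbx21, -0.13 to 0.18 at Eomes, 0.13 to 0.30 at Zeb1 and -0.37 to -0.08 at Zeb2. Regions that changed sign, among others without replicate 2 with SMARTA cells, were Tbx21 region 8 (-0.36 to 0.04), Eomes regions 13 (-0.32 to 0.11) and 15 (-0.20 to 0.05) and Zeb2 region 19 (-0.18 to 0.05). With 3 libraries a group, precision is set by the spread between libraries.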
